A study of Mus musculus with 42 samples.

Results

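Retinal cells of E12.5 were set against retinal cells of E16.5, with 11 cells from each stage. These are all single cells whose source name gives either stage, 22 of the 42 cells of the series. The series measured single retinal cells of CD1 mice, an outbred strain that the methods write as CD-1, each cell on 1 Affymetrix mouse expression array. Besides the stages compared here it holds 4 E13.5 cells, 2 E14.5 cells, 1 E15.5 cell and 13 cells of newborn mice (P0). The labels name no allele and no treatment, and every cell was labelled as a retinal progenitor. The study's own classification places E16.5 cells D5, E5 and F1 among the transitional cells, which lie between a progenitor and a neuron, and none of the E12.5 cells. No label names the embryo or litter of a cell, so the cells of a stage may share 1 animal. A stage counts here as 1 sample, so the stages are compared by size alone, without a p-value.

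A retinal progenitor cell divides and gives rise to all neurons of the retina and to Müller glia, in a fixed but overlapping order. Retinal ganglion cells, cones, horizontal cells and amacrine cells are born early, while most rods, bipolar cells and Müller glia are born late. Progenitors of the early stage lie in an eye where neurogenesis has just begun, and those of the later stage in a retina that already holds a layer of ganglion cells and is making amacrine cells and photoreceptors.

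The value of a gene in a cell is the highest MAS 5.0 signal among its probe sets, on a linear scale that the authors set to a target intensity of 500 per array, and a gene is called present at 1000 or more. A gene is past the rule when the percent of cells in which it is present differs by 50 percentage points or more between the stages. Among the E16.5 cells J1, J2, J4, E8 and F1 were hybridized to arrays with a different pattern of hybridization controls. The ratio of the CreX to the BioDn control lay between 4.38 and 4.62 on these 5 arrays, against 1.83 to 2.00 on the other 6 E16.5 arrays and 1.48 to 1.89 at E12.5. The median signal of all genes lay between 382 and 623 on the 5 arrays. It lay between 54.4 and 243 in the 6, with a median over cells of 78.6 and the highest value in cell E5. At E12.5 it lay between 18.9 and 187, with a median over cells of 97.6. The 5 cells had 3217 to 5253 genes present, the 6 had 1386 to 3367, and the E12.5 cells had 1691 to 4828. Results are hence given with the 11 E16.5 cells and again with the 6. These arrays occur at E16.5 and not at E12.5, so that among the 5 cells the array and the stage cannot be told apart.

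The 3 transitional cells and the 5 odd arrays overlap in cell F1, so that D5 and E5 are 2 of the 6. The ratio of the 3′ to the 5′ probe sets of Gapdh had a median of 1.19 at E12.5 and 1.07 at E16.5, and 1.13 in the 6 cells. That of actin had medians of 2.17 and 2.45 and of 3.67 in the 6 cells, with the highest values in E16.5 cells F1 (47.5) and F5 (21.5). Over all 18194 genes measured, a gene was present in 15.3% of gene and cell combinations at E12.5, in 16.8% with the 11 E16.5 cells and in 11.97% with the 6. Among them 11800 genes were present in at least 1 of the 22 cells and 86 in all 22.

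With 11 cells of each stage, 43 genes (0.236% of 18194) were past the rule as higher at E16.5 and 28 (0.154%) as lower. Against the 6 E16.5 cells the numbers were 37 higher (0.203%) and 187 lower (1.03%). In both forms together, 7 genes were higher (0.0385%) and 26 lower (0.143%). With so many genes compared over so few cells, differences of this size are also met by counting alone, and how many of these genes would hold in other cells was not tested. The split between the directions turned with the scale of the arrays: with all arrays scaled to an equal median of the gene signals, 2 genes were higher and 262 lower with 11 cells of each stage. It turned with the transitional cells too: without D5, E5 and F1, 131 genes were higher and 32 lower with the other 8 E16.5 cells, 214 and 177 with the 4 left of the 6, and 66 and 25 in both forms. Of the 187 genes lower in the 6 cells, 128 were present in at least 3 of the 5 cells on the other arrays, and 93 were in 0 of the 6. Of the 43 higher with all 11 cells, 20 were present in all 5 of those cells. Which part of these counts goes with the arrays was not tested.

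**Figure D1:**
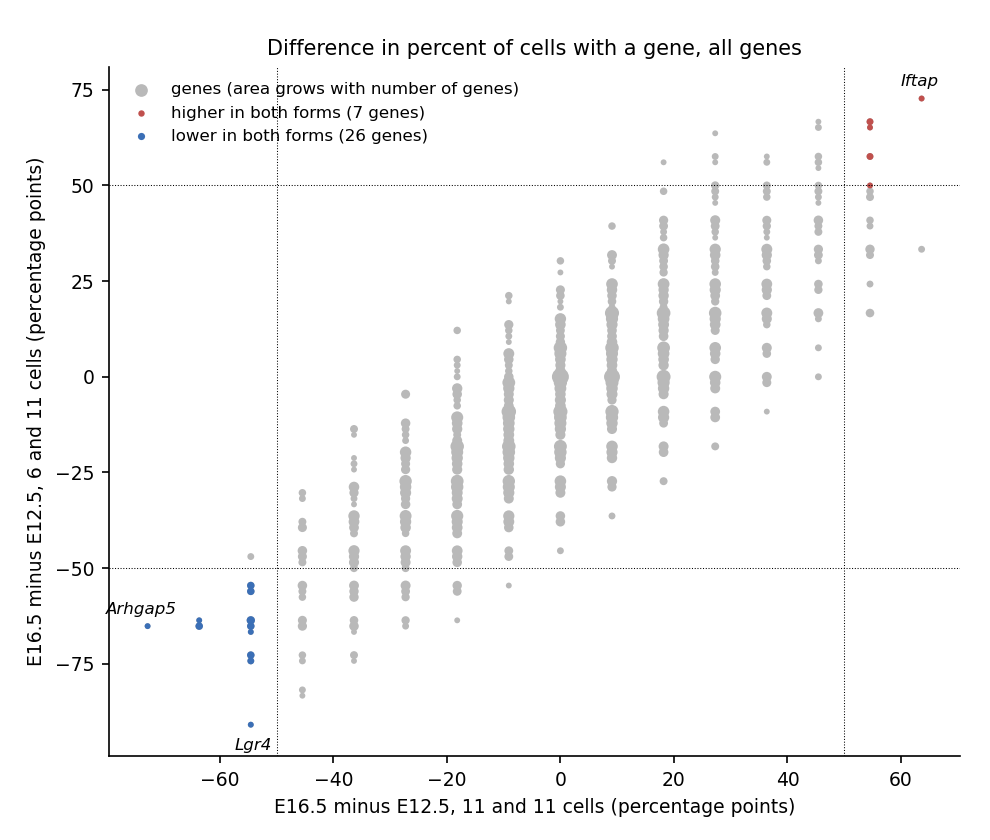
Each point stands for genes at 1 place, with the difference in percent of cells (percentage points, E16.5 minus E12.5) over 11 E16.5 cells on the x axis and over the 6 E16.5 cells on the arrays of the usual control pattern on the y axis; coloured points are past 50 points in both. The 7 higher genes lie in the upper right corner with Iftap at the far end, and the 26 lower genes lie in the lower left, where Arhgap5 is farthest along x and Lgr4 along y.

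The higher direction was led by Iftap, by the smaller of its differences in the 2 forms. It encodes a protein that binds the intraflagellar transport machinery of cilia. Its signal at E12.5 ran from 66.0 to 14058 with a median of 188, and it was present in 3 of 11 cells. At E16.5 it ran from 356 to 183707 with a median of 11411 and was present in 10 of 11 cells, including all 6 on the usual arrays. The stages overlapped, since 3 E12.5 cells were above 1000 and 1 E16.5 cell below, but in the 6 cells no signal was under 2665. The difference was 63.6 points (Newcombe 95% interval 22.7 to 82.7) with 11 cells and 72.7 points (23.9 to 90.3) with 6, and the ratio of the medians, each set to at least 1000, was 11.4-fold and 16.9-fold. The intervals here and below cover counting error only. At P0, a stage that the choice of genes did not use, Iftap was present in 10 of 13 cells.

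Snx22, a sorting nexin of membrane traffic, ran from 43.0 to 1261 with a median of 612 at E12.5, where 2 cells were just past 1000, and from 176 to 9890 with a median of 1738 at E16.5, where 8 of 11 and 5 of 6 were. Its difference was 54.5 points (13.0 to 76.4) and 65.2 points (15.7 to 84.0), but the levels lay close to the limit of 1000 and the ratio of medians was 1.74-fold. Chmp5, a subunit of the ESCRT-III complex that cuts membranes, was present in 1 E12.5 cell, in 7 of 11 E16.5 cells and 4 of the 6, and its median signal was 72.6 at E12.5 and 1470 at E16.5. Add3, an adducin of the membrane skeleton, had the same numbers of cells and medians of 171 and 1371. For both genes the signals of the stages overlapped. Of these 7 genes Iftap alone kept its call in both forms when the arrays were scaled to an equal median, and the calls of Snx22, Chmp5, Add3, Ephb1, Plgrkt and Xist were lost.

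The promoters of 2 genes of each direction are shown, those placed highest by the smaller of the differences in the 2 forms, with ties set by the ratio of medians. The sequences are from RefSeq on GRCm38.p6, 250 bases before to 50 after the most upstream start in the table, 5′ to 3′ on the strand of the gene. Capitals mark matches on either strand to an E-box (CANNTG), the Rbpj motif (TGGGAA), a homeodomain motif (TAATTA), NF-Y (CCAAT), a GC box (GGGCGG) or a TATA box (TATAAA), and neighbouring or overlapping matches run together. Iftap lies at chr2:101628982-101629281 on the minus strand and Snx22 at chr9:66069710-66070009 on the minus strand.
Iftap: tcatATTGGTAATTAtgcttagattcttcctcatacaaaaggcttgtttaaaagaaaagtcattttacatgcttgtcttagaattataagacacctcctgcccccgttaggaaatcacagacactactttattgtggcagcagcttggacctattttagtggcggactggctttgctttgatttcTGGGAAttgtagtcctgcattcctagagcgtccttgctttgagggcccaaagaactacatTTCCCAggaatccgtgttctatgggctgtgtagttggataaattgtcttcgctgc
Snx22: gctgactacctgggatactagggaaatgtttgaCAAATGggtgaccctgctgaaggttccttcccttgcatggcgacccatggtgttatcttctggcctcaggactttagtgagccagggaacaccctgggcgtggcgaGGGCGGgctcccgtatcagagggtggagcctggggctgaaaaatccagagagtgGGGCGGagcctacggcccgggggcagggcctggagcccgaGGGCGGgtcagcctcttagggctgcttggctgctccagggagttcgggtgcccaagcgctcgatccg
The Iftap promoter holds 2 Rbpj matches, 1 homeodomain and 1 NF-Y match, and that of Snx22 1 E-box and 3 GC boxes. Of the 7 higher genes, all of which had a promoter in the table, 5 held the NF-Y motif, 4 a GC box, 2 an E-box and 1 each of the Rbpj, homeodomain and TATA motifs. Among the 14453 genes with a promoter, the shares were 38.4% for NF-Y, 54.0% for the GC box, 67.0% for the E-box, 24.1% for Rbpj, 3.30% for the homeodomain motif and 9.87% for the TATA box. These matches describe letters in the window and say nothing of which factor binds.

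A further 3 genes past the rule in both forms were in 0 of the 11 E12.5 cells, a count that allows a share of up to 28.5% (exact Clopper-Pearson 95% interval). Ephb1, a receptor for ephrin-B ligands that steers axons of retinal ganglion cells at the optic chiasm, stayed between 6.68 and 486 at E12.5 and ran from 55.9 to 9327 with a median of 1108 at E16.5. It was present in 6 of 11 E16.5 cells and 4 of the 6, a difference of 54.5 points (17.5 to 78.7) and 66.7 points (21.8 to 90.3), and in 3 of 13 cells at P0. Plgrkt, a receptor for plasminogen, did not exceed 38.9 in any E12.5 cell and was present in 6 of 11 E16.5 cells, 3 of the 6 and 7 of 13 P0 cells. The stages overlapped for both genes through the E16.5 cells without them, with lowest signals of 55.9 and 6.24.

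Xist, the RNA that silences 1 X chromosome in female cells, was the third gene of this kind. It was at 269 or less in all 11 E12.5 cells and present in 6 of 11 E16.5 cells, 4 of the 6 and 6 of 13 P0 cells. At least 1 Y-linked gene was present in 6 of 11 E12.5 cells and in 4 of 11 E16.5 cells, 1 of them among the 6. Cells with neither numbered 5 at E12.5 and 3 at E16.5, and 2 E16.5 cells had both. The sex of the embryos is not in the labels, and its part in the differences between the stages was not tested.

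Outside these 7 genes, the leading genes of the higher direction were close to the limit of the rule in 1 of the forms. Ncstn, a subunit of the gamma-secretase that cleaves Notch, was present in 2 of 11 E12.5 cells, 8 of 11 E16.5 cells and 4 of the 6. Acat1, a mitochondrial thiolase, and Nt5c3b, a nucleotidase, had the same counts. Lasp1, an actin-binding LIM protein, Copb2, a coatomer subunit, Hmgn3, a nucleosome-binding protein, and Trir, a ribonuclease, each went from 4 of 11 cells to 10 of 11 and 5 of the 6. Oaz2, an inhibitor of polyamine synthesis, was past the rule in the 6 cells with 5 present against 3 of 11.

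**Figure D2:**
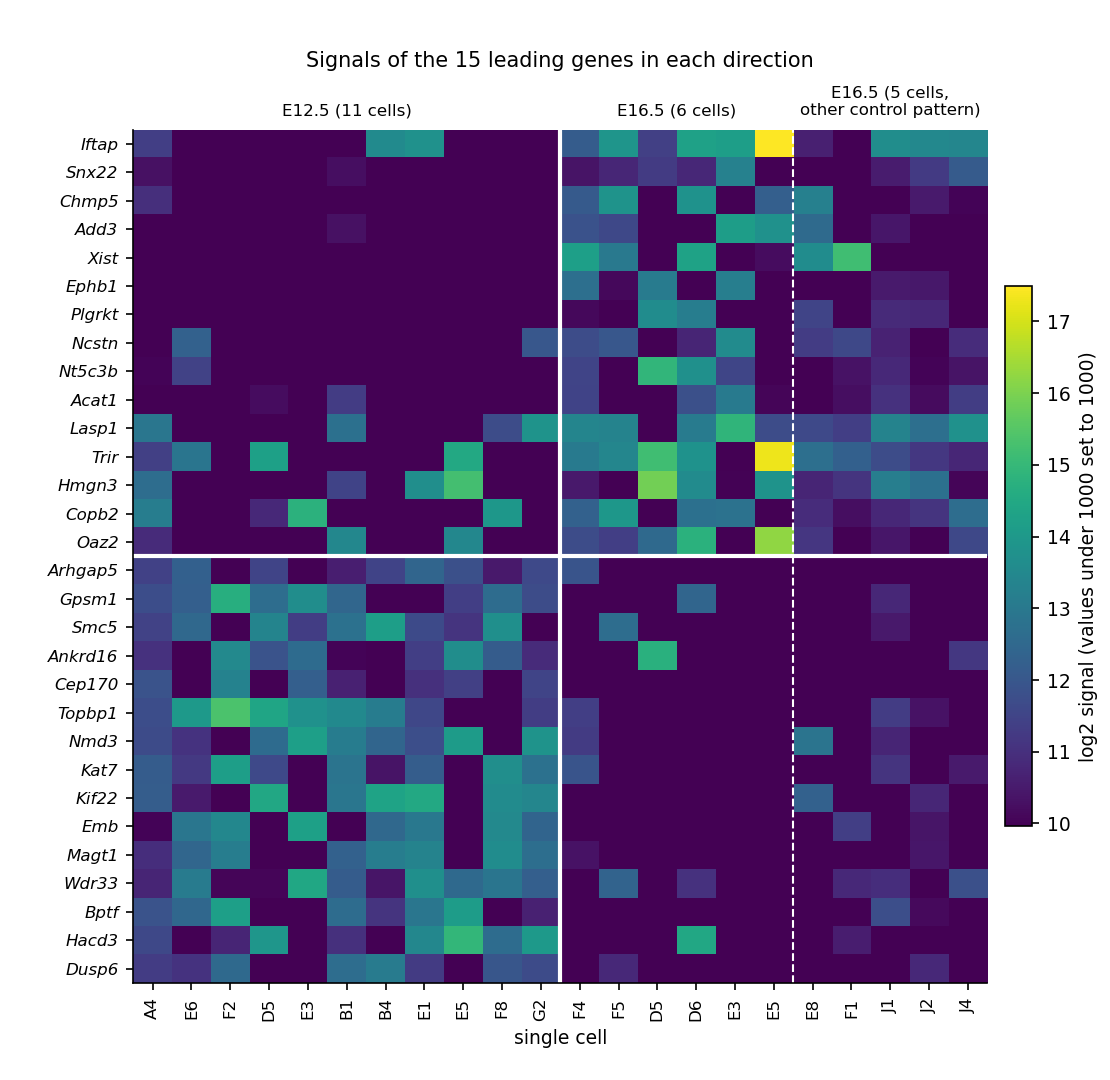
Heatmap of log2 signal, with signals under 1000 drawn at 1000, for the 15 leading genes of each direction (rows) in the 22 cells (columns, E12.5 on the left and E16.5 on the right, the 5 cells on the other arrays set apart). Dark cells of the map are at or below 1000. The upper 15 genes, led by Iftap, are dark in most E12.5 columns and the lower 15, led by Arhgap5, in most E16.5 columns.

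In the lower direction Arhgap5, a GTPase-activating protein, had the largest difference. Its signal ran from 94.1 to 5449 with a median of 2860 at E12.5 and from 28.7 to 3888 with a median of 176 at E16.5. It was present in 9 of 11 E12.5 cells and in 1 E16.5 cell, one of the 6, so that the stages overlapped through that cell and through 2 E12.5 cells below 1000. The difference was 72.7 points lower (-87.8 to -31.6) with 11 cells and 65.2 points lower (-84.0 to -15.7) with 6. It was back in 6 of 13 cells at P0. Among 7 other ways of processing, Arhgap5 stayed past the rule in both forms in 2. These were arrays scaled to an equal median and leaving out the transitional cells. Its call was lost at limits of 500, 2000 and 5000, with the median of its probe sets and with the 2000 highest genes of each cell. Gpsm1, which binds inhibitory G protein subunits and acts in spindle orientation, ran from 177 to 26322 with a median of 4843 at E12.5 and from 75.4 to 5491 with a median of 504.1 at E16.5, and went from 9 cells to 2 of 11 and 1 of the 6, and to 8 of 13 at P0.

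The Arhgap5 promoter lies at chr12:52515827-52516126 on the plus strand, at the only start that the table gives for this gene. Whether that is an internal start rather than the promoter in use was not tested. The window of Gpsm1 lies at chr2:26314361-26314660 on the plus strand. They are shown in the same form, with the same 6 motifs in capitals.
Arhgap5: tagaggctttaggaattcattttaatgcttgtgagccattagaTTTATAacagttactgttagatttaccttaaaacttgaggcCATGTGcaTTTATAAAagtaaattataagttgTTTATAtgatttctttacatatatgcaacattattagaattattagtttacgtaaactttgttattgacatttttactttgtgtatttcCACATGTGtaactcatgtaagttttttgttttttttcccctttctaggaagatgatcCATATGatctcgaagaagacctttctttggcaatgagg
Gpsm1: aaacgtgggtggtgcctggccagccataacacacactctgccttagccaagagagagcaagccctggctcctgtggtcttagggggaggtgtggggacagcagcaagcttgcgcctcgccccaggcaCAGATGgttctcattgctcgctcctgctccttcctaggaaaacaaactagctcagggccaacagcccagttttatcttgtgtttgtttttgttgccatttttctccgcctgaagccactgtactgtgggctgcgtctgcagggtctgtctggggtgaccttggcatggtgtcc
The window of Arhgap5 holds 4 E-boxes and 4 TATA boxes, and that of Gpsm1 1 E-box. Of the 26 lower genes 21 had a promoter in the table, of which 13 held an E-box, 10 a GC box, 9 the NF-Y motif, 5 the Rbpj motif, 1 the TATA box and 0 the homeodomain motif.

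Several of the 26 lower genes encode proteins of DNA replication, chromosomes and chromatin. Topbp1, which activates the checkpoint kinase ATR at stalled forks, ran from 22.6 to 41962 with a median of 8903 at E12.5 and from 8.48 to 2636 with a median of 293 at E16.5, with 9, 3 and, among the 6, 1 cells present, and its ratio of medians was 8.90-fold lower. Kif22, a kinesin that moves chromosome arms, was in 8 of 11 E12.5 cells, 2 of 11 E16.5 cells and 0 of the 6, with medians of 7673 and 322. Smc5, a subunit of the SMC5/6 complex of DNA repair, was in 9, 2 and 1, and Kat7, a histone acetyltransferase that helps license replication origins, in 9, 3 and 1. Bptf, of the NURF chromatin remodeler, was in 8, 2 and 0 cells. Cep170, a centrosomal protein, was in 7 E12.5 cells and in 0 of the 11 E16.5 cells, where its highest signal was 574, and in 10 of 13 at P0. Without the transitional cells D5, E5 and F1, Topbp1, Kif22, Kat7 and Bptf were no longer past the rule in both forms, while Smc5 and Cep170 were. This grouping was made after the genes were known and was given no test. The share of such genes among all genes was not counted, so the grouping is no result about these functions.

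Lgr4, a receptor for R-spondins that strengthens Wnt signals, had the largest difference against the 6 cells. At E12.5 its signal ran from 44.9 to 13295 with a median of 8858, with 10 of 11 cells present. It ran from 47.4 to 9938 with a median of 587 in the 11 E16.5 cells, 4 of which were present, and did not exceed 587 in the 6. All 4 E16.5 cells with Lgr4 were thus on the other arrays, and the difference was 54.5 points lower (-77.0 to -14.3) with 11 cells against 90.9 points lower (-98.4 to -42.5) with 6. Tcf3, the E2A partner of proneural bHLH factors, ran from 647 to 20497 with a median of 5458 at E12.5 and from 110.5 to 6648 with a median of 443 at E16.5, and was in 10 of 11 cells, 4 of 11 and 1 of 6. Dusp6, a phosphatase of ERK and a target of FGF signaling, ran from 4.82 to 8662 with a median of 2535 and from 1.41 to 1831 with a median of 57.1, and was in 8, 2 and 1 cells. Both were in 8 of 13 cells at P0.

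The other lower genes had varied roles. Wdr33, of the complex that cleaves and polyadenylates messenger RNA, was present in all 11 E12.5 cells, in 5 of 11 E16.5 cells and in 2 of the 6. Nmd3, an export adaptor of the large ribosomal subunit, was in 9, 3 and 1. Emb, a membrane partner of monocarboxylate transporters, was in 8, 2 and 0, and Magt1, a magnesium transporter, in 8, 2 and 1. The lipid receptor gene Lpar1, the Integrator subunit gene Ints2 and Rasgef1b, an exchange factor for Ras family GTPases, were each in 6 E12.5 cells and in 0 of 11 at E16.5. Ano1, Ankrd16, Hacd3, Cdh4, Dhx30, Ift122, Tmem132a and Gm3515 make up the rest, in 7 to 10 E12.5 cells and 1 to 4 of the 11 E16.5 cells.

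The 13 P0 cells and the 7 cells of E13.5 to E15.5 were not used to choose these genes. For the 7 higher genes the median percent of cells was 9.09% at E12.5, 0% at E13.5 to E15.5, 63.6% at E16.5 and 53.8% at P0. All 7 were in a higher percent of cells at P0 than at E12.5, 6 of them were nearer to their E16.5 value there, and 2 were 50 points or more above E12.5. For the 26 lower genes the medians were 72.7%, 42.9%, 18.2% (8.33% in the 6 cells) and 61.5% at P0. At P0 21 of the 26 were still below their E12.5 percent, but 11 were nearer to E16.5 and 2 were 50 points or more below E12.5. The genes of either direction were chosen for extreme values at E12.5 and E16.5, so that their values at these 2 stages are extremes by choice. This leaves little room beyond the E12.5 value at P0. Of the 7 higher genes, 3 were in 0 of the 11 E12.5 cells and could not be lower. Over all genes the share present was 15.3% at E12.5 and 18.1% at P0. The counts at P0 are hence a description and no test of a direction.

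**Figure D3:**
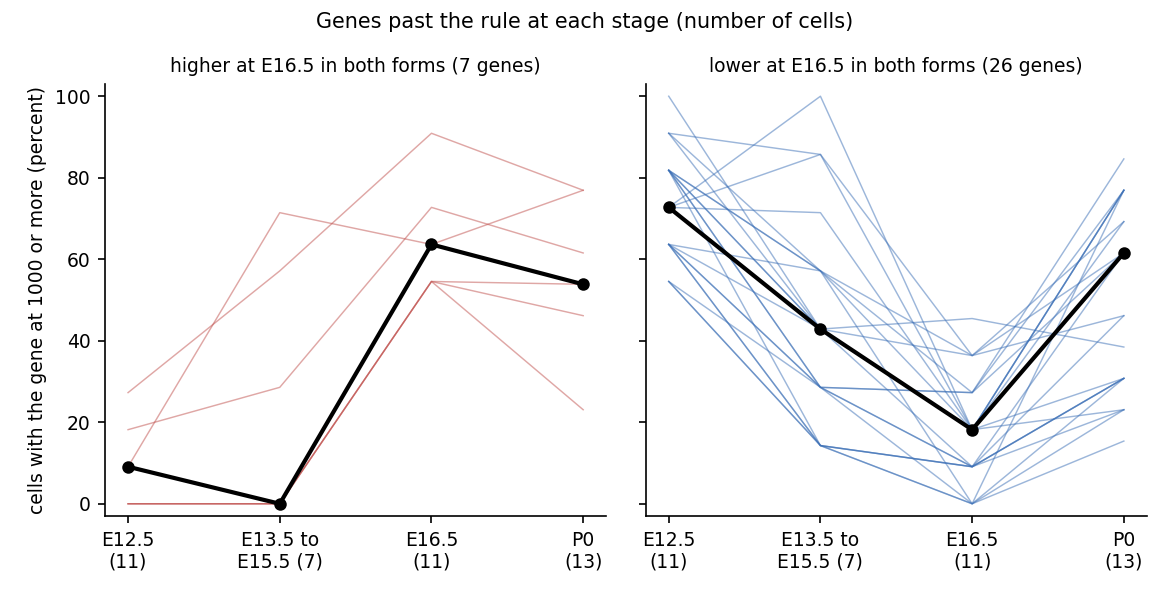
Percent of cells in which each of the 7 higher genes (left) and 26 lower genes (right) was present at E12.5, E13.5 to E15.5, E16.5 and P0, a thin line per gene and the median in black. The median of the higher genes stays up at P0 (53.8%) and that of the lower genes is at 61.5% there, closer to E12.5 (72.7%) than to E16.5 (18.2%).

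The ratio of medians gave a balance that turned with its floor. Of 2433 genes with a median of 1000 or more at a stage, 32 (1.32%) were at least 4-fold higher and 200 (8.22%) at least 4-fold lower with 11 E16.5 cells, and of 2378 against the 6 cells 190 (7.99%) were higher and 267 (11.2%) lower. With a floor of 500 in place of 1000 the 11 cells gave 133 higher and 392 lower, and with a floor of 200, 531 and 510. Separation of the signals themselves was rare. With 11 and 11 cells 1 gene (0.0055%) did not overlap, Actn3, whose signals were under 1000 in every cell. With the 6 cells 4 genes (0.022%) did not overlap, among them Sf3b6, a protein of the U2 snRNP, which ran from 28.8 to 7501 at E12.5 and from 8859 to 79310 in the 6. Over all 11 E16.5 cells Sf3b6 ran from 468 upward and overlapped. These genes were named after their values were seen.

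Gene groups were then described by the percent of gene and cell combinations present, beside the 15.3%, 16.8% and 11.97% over all genes. Of the genes of any list, those past the rule are named with each list. Over all genes 6170 were in a higher and 3742 in a lower percent of the 11 E16.5 cells, and 3155 and 6011 with the 6. The median difference over all genes was 0 points in both forms.

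**Figure D4:**
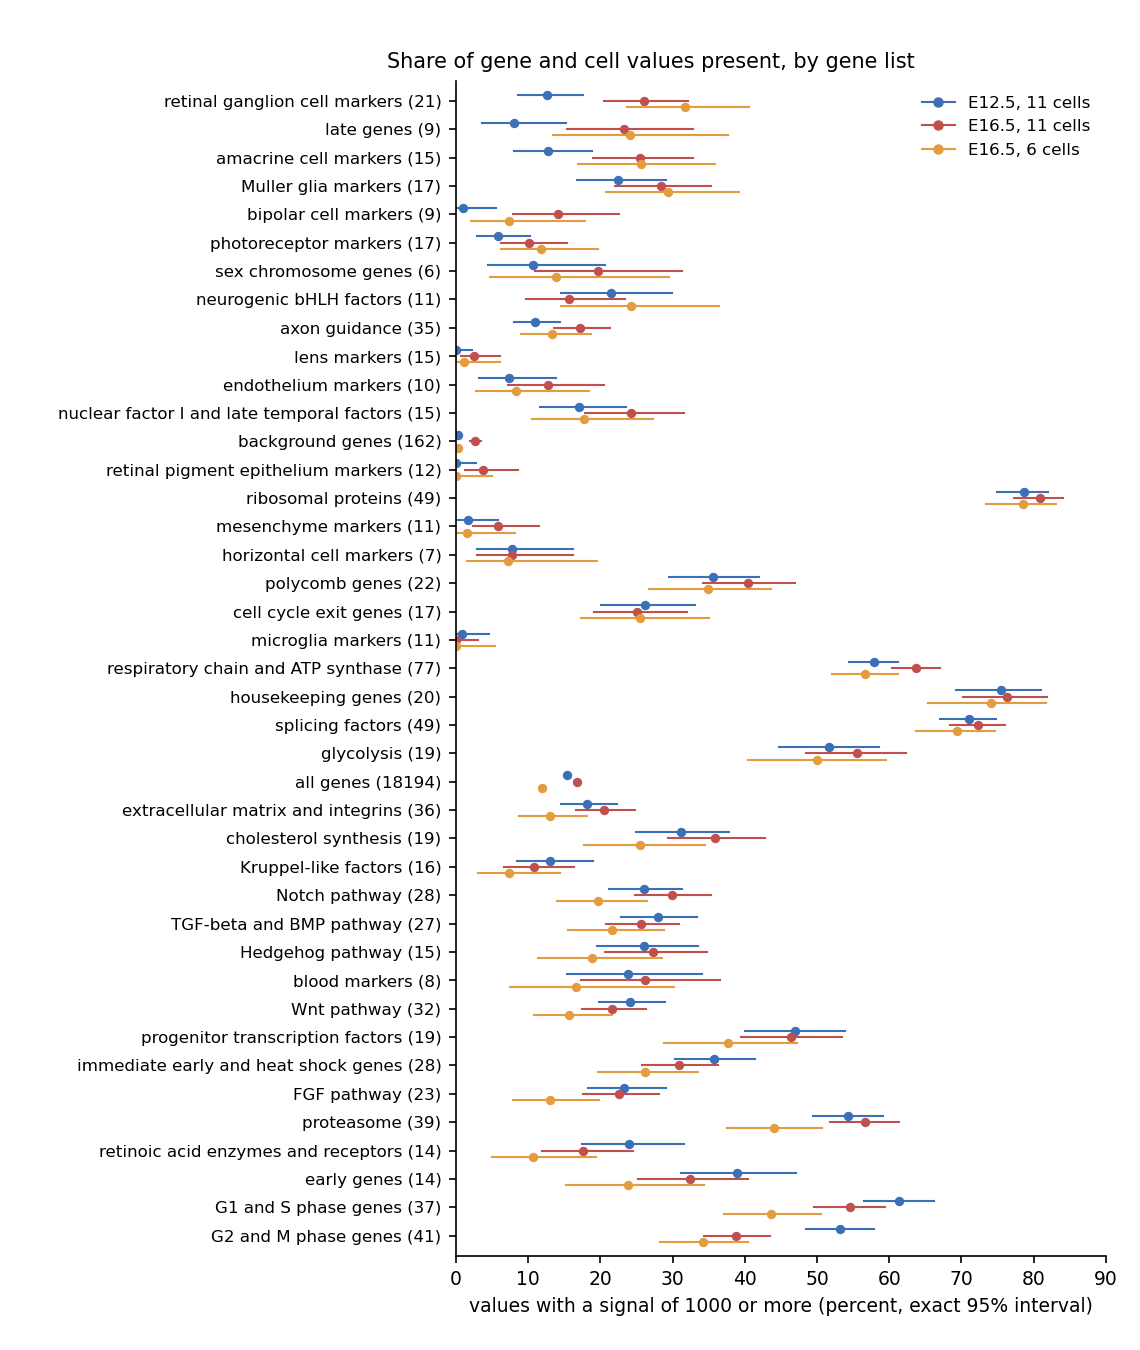
Percent of gene and cell combinations present for each gene list at E12.5, in the 11 E16.5 cells and in the 6 E16.5 cells, with exact 95% intervals. The intervals cover counting error only and take each combination as independent, so they may be too narrow. The markers of retinal ganglion and amacrine cells lie to the right of E12.5 in both E16.5 sets and the G2 and M phase genes to the left.

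Markers of retinal ganglion cells, the first neurons of the retina, were more frequent at E16.5. Of 21 measured, 12.6% of combinations were present at E12.5 (exact 95% interval 8.57% to 17.5%), 26.0% in the 11 E16.5 cells (20.4% to 32.1%) and 31.7% in the 6 (23.7% to 40.6%). In the 11 E16.5 cells 13 members were in a higher and 1 in a lower percent of cells, with a median difference of 9.09 points, the same as over the 11800 genes present in at least 1 of the 22 cells. With the 6 cells the median difference was 16.7 points, against -1.52 points over those genes. A cell had 0 to 6 markers at E12.5 with a median of 3, and 1 to 10 with a median of 5 at E16.5. The transitional cells D5 and F1 had 9 and E5 had 8, while F5, which is not among them, had 10. Without the 3 transitional cells the difference was 7.68 points with the other 8 E16.5 cells, and 14.8 points with the 4 left of the 6. The stage and the share of cells on the way to neurons cannot be told apart in that measure.

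Tubb3, the neuronal beta-tubulin, ran from 10.6 to 36944 with a median of 459 at E12.5, from 971 to 143050 with a median of 5458 at E16.5 and from 5458 to 143050 with a median of 36423 in the 6 cells. It was present in 5, 10 and 6 cells, 54.5 points higher in the 6 (7.35 to 78.7) and 45.5 points in the 11. Stmn2, a stathmin of growing axons, had medians of 178, 1302 and 11049 and was in 3, 6 and 5 cells. These were the list's only members past the rule, both with the 6 cells alone. Stmn3, a relative of Stmn2, was in 3 of 11, 8 of 11 and 3 of 6. Several defining markers, Pou4f1, Nefh, Thy1 and Ebf1, were in 0 of the 22 cells, and Isl1 was in 1 of 11, 3 of 11 and 1 of 6.

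Amacrine cell markers, of interneurons born around E16.5, were more frequent there too. Of 15 measured, 12.7% of combinations were present at E12.5 (8.05% to 18.8%), 25.5% at E16.5 (19.002% to 32.8%) and 25.6% in the 6 cells (16.9% to 35.8%), and 12 members were in more and 1 in fewer of the 11 cells. Without the transitional cells the difference was 12.3 points with 8 E16.5 cells and 17.3 points with 4, against 12.7 and 12.8 with them. No member was past the rule. E16.5 cell D6 had 9 of the 15 and F1 had 7, against at most 5 at E12.5. Without D6 the difference with the 6 cells fell from 12.8 to 5.94 points. Pax6, a progenitor and amacrine factor, was in 11 and 10 cells and all of the 6, Foxn4, needed for amacrine cells, in 5 and 6 and 3 of the 6, and Tfap2a in 0 of the 22.

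The other retinal cell types were described in the same way. Bipolar cell markers went from 1.01% to 14.1% with 11 E16.5 cells and 7.41% with the 6, and F1 held 6 of the 9. Photoreceptor markers were at 5.88%, 10.2% and 11.8%, with 7 of the 17, among them Nrl, Rcvrn and Sag, in 0 of the 22 cells. Müller glia markers were at 22.5%, 28.3% and 29.4%, with 6 of 17 in 0 cells. Horizontal cell markers were at 7.79% at both stages and 7.14% in the 6. No member of these 4 lists was past the rule.

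Genes listed here as late, among them Crym, Car2, Ptch1, Rlbp1 and Sox8, which the study names, were at 8.08% at E12.5 (3.55% to 15.3%), 23.2% at E16.5 (15.3% to 32.8%), 24.1% in the 6 cells (13.5% to 37.6%) and 85.5% at P0. Of the 9 genes 7 were in more and 0 in fewer of the 11 E16.5 cells, and none was past the rule. E16.5 cell F4 held 8 of the 9 and the other E16.5 cells 0 to 3, and without F4 the difference with the 6 cells fell from 15.99 to 3.03 points. Sox8, a factor of the SoxE group, and Crym, a thyroid hormone binding protein, were each in 4 of 11 E16.5 cells and 2 of the 6, against 0 and 1 at E12.5, and Rlbp1, a retinoid carrier of Müller glia, in 0 of the 22 and 11 of 13 at P0. Genes listed as early, among them Sfrp2, Foxp1, Fgf3 and Etv6, were at 38.96% at E12.5, 32.5% at E16.5, 23.8% in the 6 and 15.4% at P0. Genes that the study names in these lists it chose from these same cells, and the lists were set with results of these data known, so they are no independent evidence of a direction.

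Among the early genes Sfrp2, a secreted Wnt inhibitor, differed in level more than in presence. It ran from 3184 to 61050 with a median of 31525 at E12.5 and from 14.9 to 19035 with a median of 3735 at E16.5, with 11 and 9 cells present, and the median was 8.44-fold lower and in the 6 cells 12.9-fold lower. Foxp1, a forkhead factor, was in 8 of 11, 4 of 11 and 1 of 6, and past the rule with the 6. Igf2bp1, a messenger RNA binding protein, was in 10 cells of both stages, in 5 of the 6 and in 2 of 13 at P0. Etv6, which the study names among its early genes, went the other way in the array signals used here, in few cells. It was in 0 of 11 E12.5 cells, 2 of 11 E16.5 cells, 1 of the 6 and 4 of 13 P0 cells. The study picked such genes by inspecting E12.5 against P0 profiles. It also reports in situ hybridization on sections, in which their time course followed that of Sfrp2. That evidence is not weighed by these counts.

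**Figure D5:**
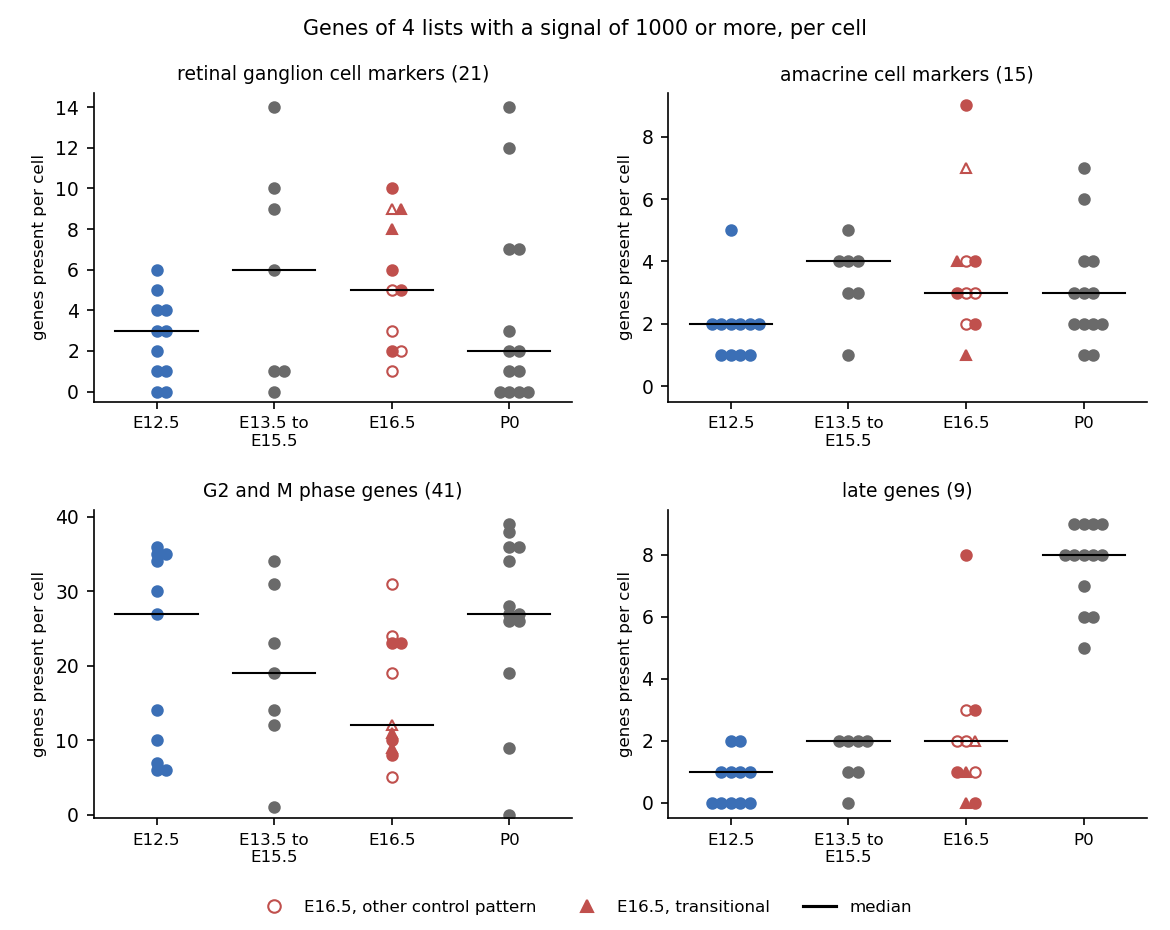
Number of genes of 4 lists (retinal ganglion cell markers, amacrine cell markers, G2 and M phase genes, late genes) present in each cell at E12.5, E13.5 to E15.5, E16.5 and P0, a point per cell, open for the cells on the other arrays and a triangle for the transitional cells, with the median as a line. At E12.5 the G2 and M phase counts fall into 6 cells with 27 to 36 genes and 5 with 6 to 14, and 1 E16.5 cell reaches 8 of the 9 late genes.

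Genes of G2 and M phase, which peak as a cell prepares to divide, were less frequent at E16.5. Of 41 measured, 53.2% of combinations were present at E12.5 (48.5% to 57.9%), 38.8% at E16.5 (34.3% to 43.5%), 34.1% in the 6 cells (28.2% to 40.4%) and 64.7% at P0. With 11 cells 26 members were in fewer and 6 in more, and with 6 cells 34 and 6. At E12.5 a cell had 6 to 36 of these genes with a median of 27, and the cells fell apart into 6 with 27 to 36 and 5 with 6 to 14. The 11 E16.5 cells had 5 to 31 with a median of 12, and the 3 transitional cells had 9 to 12. Without the transitional cells the difference was -9.62 points with the other 8 E16.5 cells and -14.2 points with the 4. The phase of each cell is not in the labels, and its part in the difference was not tested.

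The genes Ttk, a kinase of the spindle checkpoint, Kif20a, a kinesin of cytokinesis, and Ckap2, a spindle protein, were past the rule with the 6 cells. Ttk was in 8, 4 and 1 cells, Kif20a in 6, 3 and 0, and Ckap2 in 7, 2 and 0. Not all members were lower: Mki67, a mark of dividing cells, was in 9 and 9 cells (4 of the 6), and Top2a, a topoisomerase of mitotic chromosomes, in 8 and 10 (5 of the 6). Genes of G1 and S phase were at 61.4%, 54.5% and 43.7%. Without the transitional cells their difference (E16.5 minus E12.5) turned from -6.88 to 3.44 points with 8 E16.5 cells, and went from -17.7 to -5.34 points with 4. Their members past the rule, with the 6 cells alone, were Ccnd3, a D-type cyclin, Mcm5, of the replicative helicase, and Rpa1, which coats single-stranded DNA. Mcm5 ran from 1567 to 28814 with a median of 10484 at E12.5 and from 12.4 to 26066 with a median of 3100 at E16.5, and was present in all 11 cells, in 7 of 11 and in 3 of 6.

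Retinoic acid patterns the early eye, and genes for its enzymes, binding proteins and receptors were at 24.0% at E12.5, 17.5% at E16.5 and 10.7% in the 6 cells (5.02% to 19.4%), and at 24.7% at P0. Crabp1, a cytoplasmic binding protein, ran from 56.6 to 49121 with a median of 12977 at E12.5 and from 18.1 to 21723 with a median of 187 at E16.5. It was in 9 of 11, 5 of 11 and 1 of 6 cells, so that 4 of its 5 E16.5 cells were on the other arrays, and the ratio of medians was 13.0-fold lower. Its relative Crabp2 was in 8, 5 and 1 cells. Aldh1a1, the dehydrogenase that makes retinoic acid in the dorsal retina, ran from 9.30 to 27665 with a median of 2532 at E12.5 and from 1.13 to 7168 with a median of 61.7 at E16.5 and was in 7, 2 and 0 cells. All 3 were past the rule with the 6 cells and not with the 11. Cyp26a1, which degrades retinoic acid, was in 5 of 11 E12.5 cells and in 0 of 11 at E16.5, which does not reach the rule, and the related dehydrogenase gene Aldh1a3 was in 3 and 6 and in 3 of the 6.

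In the Notch pathway, which keeps progenitors from differentiating, the list as a whole was at 26.0%, 29.9% and 19.6%. The receptor gene Notch1 ran from 364 to 26066 with a median of 4675 at E12.5 and from 24.8 to 45749 with a median of 1317 at E16.5. It was present in 10 of 11, 6 of 11 and 1 of 6 cells and was past the rule with the 6, 74.2 points lower (-89.8 to -25.3). Nrarp, a target gene that dampens the pathway, was at 556 or less in all E12.5 cells and present in 6 of 11 E16.5 cells, 2 of them among the 6. It was past the rule with the 11, 54.5 points higher (17.5 to 78.7), and was in 9 of 13 cells at P0. The effector genes Rbpj and Hes5 were in 9 and 9 (4 of the 6) and in 2 and 6 cells (2 of the 6).

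Genes of FGF signaling were at 23.3%, 22.5% and 13.0%. Besides Dusp6, the receptor gene Fgfr1 was past the rule with the 6 cells, with 6 of 11, 2 of 11 and 0 of 6 cells. The ligand gene Fgf15 was in 9 and 9 cells and 5 of the 6, with medians of 31235 and 27430 at E12.5 and E16.5, a difference smaller than its spread within either stage. Wnt pathway genes were at 24.1%, 21.6% and 15.6%. Tcf3 was the member past the rule there, entered under a symbol that older work also uses for the Wnt effector Tcf7l1, while the probe sets match E2A. Axon guidance genes were at 10.9%, 17.1% and 13.3%, with Ephb1 past the rule. With the 11 cells 20 members were in more and 4 in fewer, but with the 6 cells 11 were in more and 12 in fewer. E16.5 cell F1 held 15 of the 35 genes.

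Transcription factors of progenitors were at 46.9% at E12.5 and 46.4% at E16.5, and at 37.7% in the 6 cells. Sox2 alone was past the rule, with the 6 cells, at 10 of 11, 7 of 11 and 2 of 6. Lhx2 was in 9, 7 and 3 cells and the proneural bHLH list was at 21.5%, 15.7% and 24.2%. Some lists of general functions differed little: ribosomal proteins were at 78.7%, 80.9% and 78.6%, splicing factors at 71.1%, 72.4% and 69.4% and housekeeping genes at 75.5%, 76.4% and 74.2%. Within the splicing factors Snrpf, an Sm protein, was past the rule with the 6 cells (4 of 11, 7 of 11 and 6 of 6). Proteasome genes differed more with the 6 cells (54.3%, 56.6% and 44.0%). Polycomb genes were at 35.5%, 40.5% and 34.8%, with Eed, a core subunit of PRC2, in 3, 7 and 5 cells and past the rule with the 6.

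Markers of cells other than retina were rare but not equal between the stages. Markers of retinal pigment epithelium were at 0% at E12.5, 3.79% in the 11 E16.5 cells and 0% in the 6, lens markers at 0%, 2.42% and 1.11%, and markers of mesenchyme at 1.65%, 5.79% and 1.52%. Genes that a retinal cell should lack, such as those of immunoglobulins, keratins, muscle and chemosensory receptors, were at 0.224%, 2.64% and 0.309%. E16.5 cell F1 had 29 of those 162 genes present, against at most 6 in the other E16.5 cells and at most 2 at E12.5. Of the combinations present at E16.5, F1 also held 3 of 5 for pigment epithelium, 2 of 4 for lens and 5 of 7 for mesenchyme. Microglia markers were in 1 combination at E12.5 and 0 at E16.5. Blood markers were at 23.9%, 26.1% and 16.7%, since Hba-a2, an alpha-globin gene, was present in 11 and 10 cells with medians of 36811 and 44549, and E12.5 cell G2 held 7 of the 8. Their part in the differences above was not tested.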

How the data were processed

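The RNA of each single cell was reverse transcribed with an oligo dT primer, amplified by 35 cycles of PCR and hybridized to 1 array. The intensity values deposited by the authors are MAS 5.0 signals on a linear scale, brought to a target of 500 on each array. Amplification from an oligo dT primer favours 3′ ends and can lose rare transcripts, so a gene called absent may be expressed. Arrays give no read depth, and 11 cells a stage limit the precision.

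Of 45101 probe sets, 34958 were listed with 1 gene symbol and used, 932 had several and 9211 were unnamed here. Of the 35890 listed, 34754 matched RefSeq by gene identifier. They gave 18194 genes. Shares carry exact Clopper-Pearson and differences Newcombe 95% intervals. The ratio of medians was taken after setting medians to at least 1000, with no ratio where both were lower, and 4-fold as its limit. No test was run. Python 3.11.15 was used with numpy 2.4.6, pandas 2.3.3, scipy 1.17.1, statsmodels 0.14.6 and matplotlib 3.10.9, and the counting was tested on simulated data.

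The members and the 40 gene lists were chosen with earlier results of these data known. Named genes were the 15 leading in each direction by the smaller of the differences in the 2 forms, members of a list past the rule, the 2 members of each list in the most cells, and a fixed set of genes, most of which the study names with a stage. The other genes past the rule in both forms and the genes whose signals did not overlap were named after their values were seen. Alternatives were other limits for presence, size and floor, the median of the probe sets, the 2000 highest genes of each cell, arrays scaled to an equal median, genes in at least 3 cells, and leaving out single cells or the transitional cells. The 2 combinations with the 6 E16.5 cells were chosen after seeing the data. Some genes that the study names are not reported here.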

Additional observations from a re-analysis of the deposited data

Results flagged for a closer look

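The comparisons used genes with 1 symbol. In the 10092 probe sets with several symbols or none, which no comparison used (51 control probe sets are left out), 5 (0.0495%) were past the rule of 50 percentage points in both forms, 2 higher and 3 lower at E16.5. This share is below that of the genes compared, 33 of 18194 (0.181%). With 11 cells of each stage 5 were higher and 5 lower, and against the 6 E16.5 cells 8 were higher and 15 lower. These probe sets have no single gene name here.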

How the results depend on the processing

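No named gene past the rule took the opposite direction, but Ncstn at 5000 or more and Bptf, Kat7 and Wdr33 with the median of the probe sets came to a difference of 0. The counts of genes moved by more than 1.5 times under many alternatives. Present at 500 or more gave 268 genes higher, 8 lower and 54 in both forms, and at 2000 or more 6, 64 and 51. At 5000 or more 2 were higher and 46 lower. The median of the probe sets gave 17 higher and the 2000 highest genes of each cell 15 higher. Arrays scaled to an equal median gave 2 higher, 262 lower and 133 in both forms. Without E16.5 cells D5, E5 and F1, 131 were higher and 91 past the rule in both forms (66 higher, 25 lower). A limit of 60 points left 3 higher, 5 lower and 6 in both forms, and one of 40 points gave 130, 111 and 142. Without E8, F1, J1, J2 and J4, 187 were lower. In the combinations chosen after seeing the data, the 2000 highest genes with the 6 cells gave 108 higher and 93 lower, and scaled arrays with the 6 cells 164 lower. Genes present in at least 3 cells gave the same 43, 28 and 33. The 232 genes past 4-fold became 525 with a floor of 500 and 1041 with a floor of 200, where 531 were higher and 510 lower. Leaving out 1 cell gave 47 to 99 higher, 32 to 73 lower and 53 to 73 in both forms (8 to 31 higher, 30 to 61 lower). Against the 6 cells it gave 37 to 96 higher and 187 to 373 lower. With unequal numbers of cells differences between 50.0 and 54.5 points become possible, which 11 and 11 cells do not allow. Otherwise the cause was not tested. Of 7 alternatives with both forms, Lgr4 kept its call in 6, and Iftap, Emb, Magt1, Tcf3 and Topbp1 in 5, while Chmp5, Ints2, Lpar1 and Wdr33 kept it in 1 and Hacd3 in 0. The higher genes kept were 5 of 7 at 500, 1 at 2000, 0 at 5000 and 1 with scaled arrays, and the lower genes 4, 17, 4 and 21 of 26. With the median of the probe sets 3 of 7 higher and 12 of 26 lower genes were kept. The 2000 highest genes of each cell kept 2 and 10, and leaving out the transitional cells kept 7 and 17. No paired analysis was possible because the labels give no pairs of cells across stages.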

Other observations

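Gene groups not described above gave these shares of gene and cell combinations at E12.5, in the 11 E16.5 cells and in the 6, and none of their members was past the rule. Genes of the respiratory chain and ATP synthase were at 57.9%, 63.8% and 56.7%, those of glycolysis at 51.7%, 55.5% and 50.0%, and those of cholesterol synthesis at 31.1%, 35.9% and 25.4%. Proteasome genes were at 54.3%, 56.6% and 44.0%. Immediate early and heat shock genes, which respond to handling, were at 35.7%, 30.8% and 26.2%, with 15 of 28 members in fewer and 4 in more of the 11 cells.

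Among signaling and regulatory groups, genes of the Hedgehog pathway were at 26.1%, 27.3% and 18.9%, and its receptor gene Smo was in 7 of 11, 6 of 11 and 1 of 6 cells. Genes of TGF-beta and BMP signaling were at 27.9%, 25.6% and 21.6%. The target gene Id1 was in 11 of 11, 8 of 11 and 4 of 6 cells, with medians of 17879 and 6990 at E12.5 and E16.5. Nuclear factor I and other late temporal factors were at 17.0%, 24.2% and 17.8%, cell cycle exit genes at 26.2%, 25.1% and 25.5%, Kruppel-like factors at 13.1%, 10.8% and 7.29%, extracellular matrix and integrin genes at 18.2%, 20.5% and 13.0%, and endothelium markers at 7.27%, 12.7% and 8.33%. In these groups a share that was higher with the 11 E16.5 cells was often lower with the 6, as the share over all genes was.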
